A study of Macaca mulatta with 6 samples.

Results

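A set of 10 genes of bone morphogenetic protein (BMP) signaling were followed in naive and primed induced pluripotent stem cells (iPSCs) of the rhesus monkey, namely the ligands BMP2, BMP4 and BMP7, the ID genes ID1, ID2, ID3 and ID4, the feedback genes SMAD6 and BAMBI, and the homeobox gene MSX2. They were chosen by symbol, and each of the 10 had exactly 1 row among the 30246 gene rows of the deposited tables. RNA was sequenced from 6 iPSC lines made from monkey fibroblasts, 2 in each of 3 groups. The female naive and male naive lines shared 1 medium, with 15% serum replacement, N2 supplement, LIF at 10 ng/ml and bFGF at 4 ng/ml. It also held 4 kinase inhibitors: 3 µM CHIR99021, which blocks GSK3, 0.5 µM PD0325901, which blocks MEK, 10 µM SB203580, which blocks p38, and 10 µM SP600125, which blocks JNK. The male primed lines were kept in 20% serum replacement with bFGF. The labels list no added BMP ligand and no BMP receptor inhibitor in either medium. Feeder cells were removed before RNA isolation, the labels do not tie lines to donors, and no female primed line was analysed here.

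BMPs are secreted ligands of the TGF-beta superfamily. They bring type I and type II receptors together, the type I receptor phosphorylates SMAD1, SMAD5 and SMAD9, and these enter the nucleus with SMAD4 and switch on target genes. The ID genes are the classical early targets: ID proteins have a helix-loop-helix but no DNA-binding region, and they hold E proteins in dimers that cannot bind DNA. SMAD6 and BAMBI are targets that dampen the pathway. In mouse, BMP4 with LIF keeps embryonic stem cells undifferentiated through Id genes, whereas in human primed stem cells added BMP4 drives differentiation.

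Levels are FPKM, which count fragments per length of transcript relative to the library's mapped fragments, so genes can be compared per length within a library. The fragments behind each value were estimated from the deposited bounds and are called effective fragments. Male naive libraries held 1754857 and 1478692 of these, against 7607125 to 10013491 in the other 4, so a low gene is measured least precisely in male naive lines. Pearson's r over the 13685 rows tested was 0.95 to 0.962 within groups and 0.878 to 0.921 between them; genes are no independent replicates. Limma called 920 rows higher and 628 lower in naive than in primed lines, or 693 and 878 after upper-quartile scaling. Within males it called 543 higher and 195 lower in naive lines (391 and 358 after upper-quartile, 418 and 255 after median-of-ratios scaling). Between naive groups it called 104 higher and 349 lower in female lines (113 and 219 after median-of-ratios scaling). Of 6 listed pluripotency genes, POU5F1, SOX2, SALL4 and DPPA4 were at 19.6 FPKM or more in all 6 libraries, and NANOG and TDGF1 were low in primed lines. Limma called 4 of the 6 (POU5F1, NANOG, DPPA4 and TDGF1) higher and 0 lower in naive lines, against 6.72% and 4.59% of all rows. Within males the same 4 were called higher, against 3.97% of all rows. Although above that level throughout, DPPA4 was at 77.9 to 217 FPKM in naive and at 21.8 and 19.6 FPKM in primed libraries. NANOG was at 28.7 to 95.9 FPKM in naive libraries and at 0.933 and 2.09 FPKM in primed libraries. TDGF1 was at 11.9 to 111 FPKM in naive libraries, listed at 0 in primed 1 and at 0.818 FPKM in primed 2. POU5F1 was at 536 to 1160 FPKM in naive libraries and at 135 and 109 FPKM in primed libraries. SOX2 was at 85.3 to 122 FPKM in naive libraries and at 141 and 124 FPKM in primed libraries. How far the primed lines were pluripotent was not tested here.

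BMP4 was higher in naive lines, as was BAMBI, while the ID genes did not move as a block. ID1 and ID3 lay above, and ID2 below, the primed libraries in all 4 naive libraries, but none of the 3 passed the test. BAMBI, BMP2, BMP7, ID4 and SMAD6 overlapped between the states, and the BAMBI call was lost in 8 of 14 alternatives. MSX2 was under the testing limit. Of the 9 tested members, 2 were called higher and 0 lower in naive lines at an adjusted p under 0.05, against 6.72% and 4.59% of all tested rows. The unadjusted p was under 0.05 for 5 of the 9, beside 30.9% of all rows, and their median log2 difference was 0.43, beside 0.035 over all tested rows. The groups did not overlap for 4 members, 3 with naive lines higher and 1 with naive lines lower, against 34.8%, 18.9% and 15.9% of all rows.

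**Figure D1:**
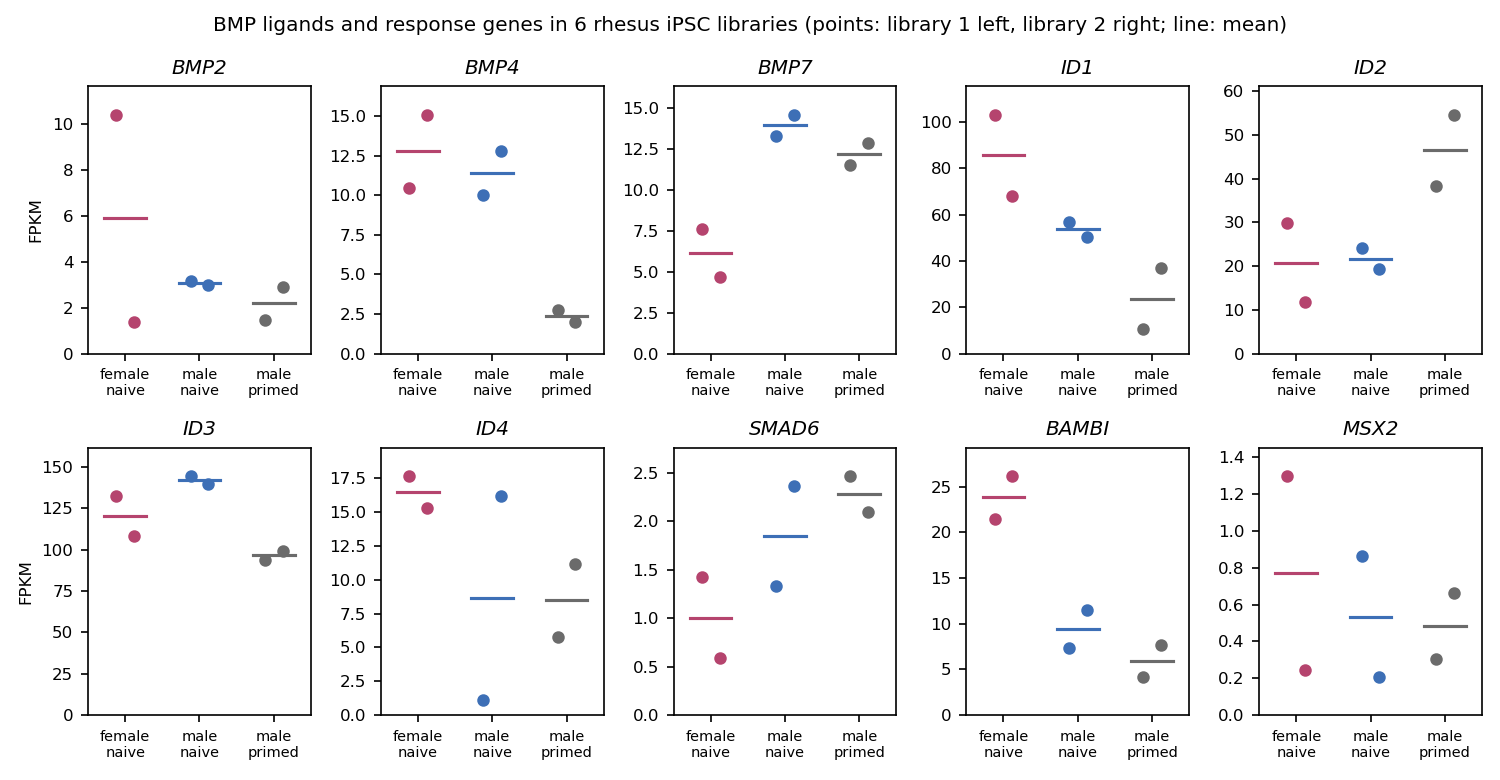
FPKM of each of the 10 genes in every library, with female naive, male naive and male primed groups from left to right; points are libraries 1 and 2, lines are means of 2 and each panel has its own axis from 0. All 4 naive BMP4 values, 9.99 to 15.1, lie above the primed values of 2.72 and 2.01, and ID2 shows the opposite order.

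Among the ligands, BMP4 (ENSMMUG00000000429, chromosome 7, 116971410 to 116978207, as the deposited files give it) set the states apart. It was at 10.5 and 15.1 FPKM in female naive 1 and 2, 9.99 and 12.8 FPKM in male naive 1 and 2, and 2.72 and 2.01 FPKM in primed 1 and 2. Every naive library was above both primed libraries, and the male and female naive ranges overlapped. The naive mean was 12.1 ± 2.35 FPKM (SD, n = 4) and the primed mean 2.37 ± 0.501 FPKM (SD, n = 2), a 5.10-fold ratio of means. On the log2(FPKM + 1) scale, which understates changes of low genes, BMP4 rose by 1.95 (SE 0.23, limma adjusted p = 0.0102). Within males it rose by 1.88 (SE 0.26, limma adjusted p = 0.0182), and female and male naive lines differed by 0.14 (95% interval -0.49 to 0.77). The values rested on 37 and 40 effective fragments in male naive libraries and 57 and 33 in primed libraries. The within-male call was lost without male naive 1 (limma adjusted p = 0.0787) and without male naive 2 (0.117), within a range of 0.0192 to 0.117 over 13 alternatives.

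BMP7 (ENSMMUG00000004074, chromosome 10, 7268210 to 7368069), a ligand that can pair with BMP2 or BMP4, was the most abundant of the 3 in primed lines. It was at 7.59 and 4.65 FPKM in female naive 1 and 2, 13.3 and 14.6 FPKM in male naive 1 and 2, and 11.5 and 12.8 FPKM in primed 1 and 2. Male naive and primed lines were close together, and both female naive libraries lay below the other 4. Naive minus primed was -0.37 (95% interval -0.88 to 0.15, limma adjusted p = 0.292) and female minus male naive -1.10 (SE 0.24, limma adjusted p = 0.0733). Neither difference passed.

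BMP2 (ENSMMUG00000019849, chromosome 10, 40075162 to 40086992), a close relative of BMP4, differed most between the female naive libraries. It was at 10.4 and 1.37 FPKM in female naive 1 and 2, 3.16 and 2.96 FPKM in male naive 1 and 2, and 1.47 and 2.89 FPKM in primed 1 and 2. Female naive 1 stood above all other libraries on 368 effective fragments, and female naive 2 was the lowest. The naive minus primed difference was 0.57 (95% interval -0.91 to 2.04, limma adjusted p = 0.572). The BMP2 difference was 0.0027 without female naive 1 and 1.13 without female naive 2. The primitive streak and mesoderm list also peaked in female naive 1 but did not follow BMP2 in the other libraries. Its summed level over 8 genes was 47.3 and 16.2 FPKM in female naive 1 and 2, 24.0 and 33.3 FPKM in male naive and 4.50 and 4.44 FPKM in primed libraries. Of 5 tested markers of that list, 2 (EOMES and KDR) were called higher and 0 lower in naive lines, against 6.72% and 4.59% of all rows, and none of the 8 was listed at 0 in every library. The EOMES call was lost in 6 of 14 alternatives, among them leaving out any one male naive or primed library (limma adjusted p up to 0.0991), and the KDR call with sex ignored (0.119). EOMES (16.2 FPKM) and GSC (15.3 FPKM) were highest in female naive 1, whereas T (7.33 FPKM) and MIXL1 (8.75 FPKM) were highest in male naive 2. CER1, a secreted antagonist of BMP and Nodal, was at 133 FPKM in female naive 1 and 17.1 FPKM in female naive 2. The part of such cells in the BMP2 value was not tested, and in bulk RNA more cells of a type and more RNA per cell cannot be told apart.

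Within a library, the 3 ligands made up a different mix in each state. BMP4 was 36.8% and 71.5% of their summed FPKM in female naive libraries and 37.8% and 42.2% in male naive libraries. In primed libraries it was 17.3% and 11.3%. BMP7 took 26.7% and 22.0% of the sum in female naive, 50.2% and 48.0% of it in male naive, and 73.3% and 72.4% of it in primed libraries. The ratio of BMP4 to BMP7 ran from 0.752 to 3.25 in naive libraries and was 0.236 and 0.157 in primed libraries. It was above 1 in both female naive libraries and below 1 in the other 4.

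**Figure D2:**
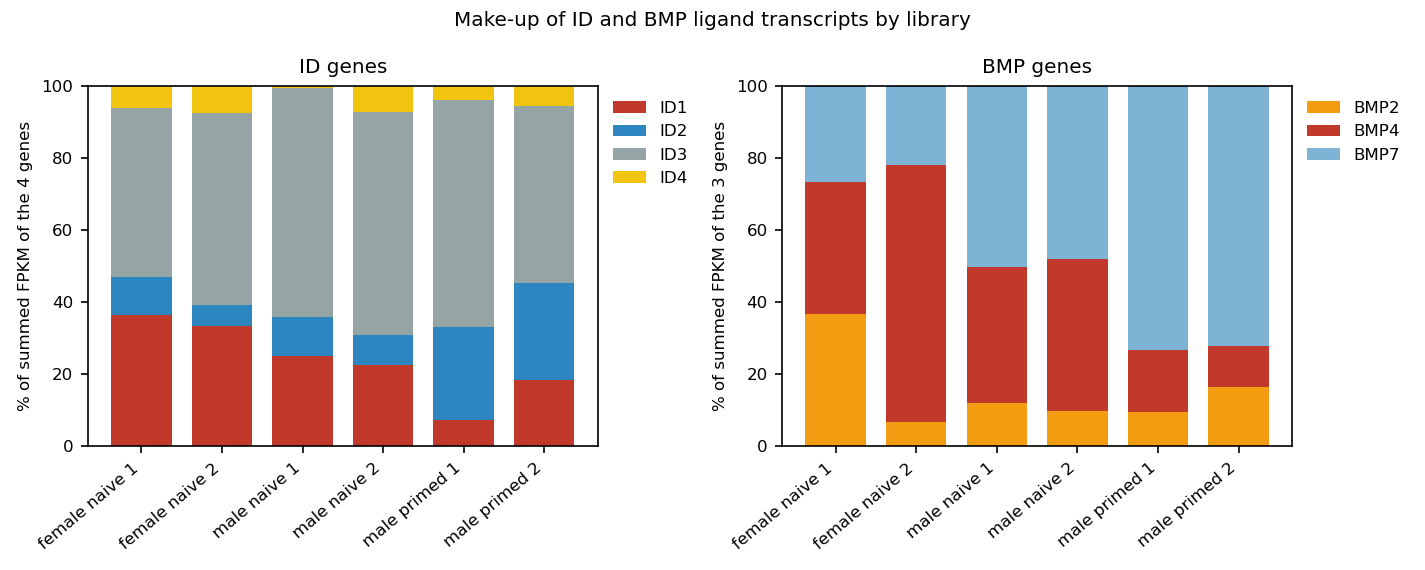
Share of the summed FPKM of ID1 to ID4 (left) and of BMP2, BMP4 and BMP7 (right) in each library, female naive first and primed last, as stacked bars to 100%. ID2 takes 5.76% to 10.7% of the ID sum in naive and 25.8% and 27.1% in primed libraries, and BMP7 takes over 70% of the ligand sum only in primed libraries.

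ID3 (ENSMMUG00000005560, chromosome 1, 26160631 to 26162220) was the most abundant ID gene in every library. It was at 132 and 109 FPKM in female naive 1 and 2, 145 and 140 FPKM in male naive 1 and 2, and 93.8 and 99.4 FPKM in primed 1 and 2. All naive libraries were above both primed libraries, by a small margin for female naive 2. The mean was 131 ± 15.9 FPKM in naive (SD, n = 4) and 96.6 ± 3.95 FPKM in primed lines (SD, n = 2). The log2 difference of 0.43 (SE 0.12, 95% interval 0.14 to 0.72) missed the threshold at a limma adjusted p of 0.0671. The gene rested on 264 to 1388 effective fragments per library. The 3 genes nearest to its profile by root mean square difference in centered log2(FPKM + 1) over 6 libraries, among 8860 rows with a mean of 5 FPKM or more, were IDE, an insulin-degrading protease (0.0352), RALGAPA1, a GTPase-activating subunit (0.0449), and CENPW, a centromere protein (0.0463), beside a range of 0.618 for ID3 itself.

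ID1 (ENSMMUG00000004403, chromosome 10, 32963890 to 32965040), the member most often used to read BMP activity, had the largest difference among the ID genes. It was at 103 and 68.0 FPKM in female naive 1 and 2, 56.8 and 50.5 FPKM in male naive 1 and 2, and 10.7 and 36.7 FPKM in primed 1 and 2. The 3 groups did not overlap, with female naive highest and primed lowest, but the primed libraries differed from each other by more than the male naive ones. The means were 69.6 ± 23.5 FPKM in naive (SD, n = 4) and 23.7 ± 18.4 FPKM in primed lines (SD, n = 2), a 2.93-fold ratio. The log2 difference was 1.69 (SE 0.45, 95% interval 0.60 to 2.79), with a limma adjusted p of 0.0633. Its size depended on which primed library was kept: the difference was 0.85 without primed 1 and 2.54 without primed 2. In a group of 2, leaving out either library shifts the difference equally, so this cannot tell which of them is unusual. Without primed 1, ID2 had the larger difference of the 2, at -1.40. Female minus male naive was 0.64 (95% interval -0.63 to 1.90), and male naive minus primed 1.38 (95% interval 0.11 to 2.64, limma adjusted p = 0.167).

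The primed libraries also differed in markers of other cells. LUM, a connective tissue proteoglycan, was at 0.111 FPKM in primed 1 and 19.9 FPKM in primed 2, COL1A1 at 9.24 FPKM in primed 1 and 135 FPKM in primed 2, and the epithelial keratin KRT18 at 9.06 FPKM in primed 1 and 72.9 FPKM in primed 2. CDX2, a trophoblast and hindgut factor, went the other way, at 12.7 FPKM on 431 effective fragments in primed 1 and 0.188 FPKM in primed 2. The fibroblast and feeder list had a row for 9 of its 10 genes. Its sum was 402 and 537 FPKM in female naive, 573 and 467 FPKM in male naive, and 668 and 761 FPKM in primed libraries. The list held VIM alone at 642 FPKM in primed 1 and 501 FPKM in primed 2. Without VIM it summed to 215 and 331 FPKM in female naive, 121 and 94.2 FPKM in male naive, and 25.9 and 261 FPKM in primed libraries. Of its 8 tested genes, 0 were called higher and 1, VIM, lower in naive lines, against 6.72% and 4.59% of all rows. POSTN was listed at 0 in primed 1. The VIM call was lost without male naive 2 (limma adjusted p = 0.0581), without primed 1 (0.0583) and with sex ignored (0.183). Within males the VIM difference was -0.47 (SE 0.17, limma adjusted p = 0.154), which was not called. Female minus male naive, it was -1.06 (SE 0.17, limma adjusted p = 0.0348), which was called. The amnion and trophoblast list of 13 summed to 248 and 176 FPKM in female naive, 191 and 182 FPKM in male naive, and 39.9 and 104 FPKM in primed libraries. Most of it was KRT18 except in primed 1, where VTCN1 (17.4 FPKM) and CDX2 exceeded KRT18. Limma called none of its 6 tested genes in either direction, against 11.3% of all rows. The unadjusted limma p was under 0.05 for 2, KRT7 and KRT18, beside 30.9% of all rows. KRT18 differed by 2.56 (SE 0.72, limma adjusted p = 0.0708). GATA3 (4.97 FPKM), TFAP2A (2.72 FPKM) and CGA (8.24 FPKM) were highest in female naive 1. VTCN1 was highest in male naive 1, at 26.2 FPKM. KRT7 was at 10.2 and 5.32 FPKM in female naive and 11.0 and 7.69 FPKM in male naive libraries. In primed libraries it was at 0.796 and 4.94 FPKM. HAND1, of the same list, was listed at 0 in both male naive and both primed libraries and was at 0.143 and 0.0787 FPKM in female naive libraries. The part of these cells in the ID1 values was not tested.

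ID2 (ENSMMUG00000003237, chromosome 13, 8764524 to 8769686) went the other way. It was at 29.8 and 11.7 FPKM in female naive 1 and 2, 24.2 and 19.3 FPKM in male naive 1 and 2, and 38.3 and 54.7 FPKM in primed 1 and 2. All 4 naive libraries were below both primed libraries. The means were 21.2 ± 7.65 FPKM in naive (SD, n = 4) and 46.5 ± 11.6 FPKM in primed lines (SD, n = 2), and the log2 difference was -1.15 (SE 0.36, 95% interval -2.02 to -0.27, limma adjusted p = 0.0928). It was called only when female naive 1 was left out, at -1.46 (limma adjusted p = 0.0368, range 0.0368 to 0.281 over 14 alternatives). Since ID1 and ID2 leaned apart, their ratio within a library ran from 2.35 to 5.80 in naive libraries and was 0.280 and 0.672 in primed libraries. ID1 therefore exceeded ID2 per length in every naive library and in neither primed library. The summed level of the neural marker list was lower in naive lines as well, although NES was not. Over the 6 genes with a row the sum was 197 and 299 FPKM in female naive, 362 and 331 FPKM in male naive, and 670 and 877 FPKM in primed libraries. It came mostly from NES in naive and from CRABP1 in primed libraries. NES was at 166 and 263 FPKM in female naive, 244 and 229 FPKM in male naive, and 165 and 170 FPKM in primed libraries. It was left out of testing for a failed or low-data status, with 0.332 effective fragments in female naive 2. Of 5 tested neural genes, 0 were called higher and 3 lower in naive lines (CRABP1 by -4.06, NCAM1 by -1.84 and MAP2 by -1.39), against 6.72% and 4.59% of all rows, with a list median of -1.84. CRABP1 was called under all 14 alternatives, NCAM1 was lost without male naive 1, male naive 2 or primed 1 (limma adjusted p 0.0526 to 0.0809), and MAP2 without any one of these or female naive 2 and with sex ignored (0.0515 to 0.300). Within males 0 neural genes were called higher and 2 lower, CRABP1 and NCAM1, against 3.97% and 1.42% of all rows. There PAX6 differed by -1.40, MAP2 by -0.36 and TUBB3 by 0.048 (limma adjusted p 0.186, 0.468 and 0.949). In female against male naive lines 0 were called higher and 3 lower, against 0.76% and 2.55% of all rows. These were MAP2 (-2.06), TUBB3 (-1.93) and CRABP1 (-1.88). The part of neural cells in the ID2 values was not tested.

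ID4 (ENSMMUG00000014691, chromosome 4, 19833780 to 19834636), the ID gene best known from neural tissue, was at 17.7 and 15.3 FPKM in female naive 1 and 2, 1.13 and 16.2 FPKM in male naive 1 and 2, and 5.78 and 11.2 FPKM in primed 1 and 2. Male naive 1 was far below the other naive libraries, on 1 effective fragment against 12 in male naive 2. The difference of 0.18 (95% interval -1.72 to 2.08, limma adjusted p = 0.902) was not called, and it was 0.93 without male naive 1. The 4 ID genes together summed to 283 and 204 FPKM in female naive, 227 and 226 FPKM in male naive, and 149 and 202 FPKM in primed libraries. Every naive sum was above both primed sums, with female naive 2 and primed 2 nearly level.

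BAMBI (ENSMMUG00000000567, chromosome 9, 28772220 to 28777650) encodes a pseudoreceptor that blocks BMP and TGF-beta receptors, and WNT signaling also induces it. It was at 21.5 and 26.2 FPKM in female naive 1 and 2, 7.35 and 11.5 FPKM in male naive 1 and 2, and 4.16 and 7.67 FPKM in primed 1 and 2. Female naive lines were highest, and male naive 1 lay just below primed 2, so naive and primed lines overlapped. The means were 23.8 ± 3.30 FPKM in female naive, 9.44 ± 2.96 FPKM in male naive and 5.91 ± 2.49 FPKM in primed lines (SD, n = 2 each). BAMBI rose by 1.25 in naive against primed lines (SE 0.28, limma adjusted p = 0.042). The call was lost in 8 of 14 alternatives (limma adjusted p 0.0334 to 0.201), among them leaving out any one library other than primed 2, and the value was 1.89 without both male naive libraries. Within males the difference was 0.61 (limma adjusted p = 0.291), and female minus male naive was 1.27 (SE 0.32, limma adjusted p = 0.0952).

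SMAD6 (ENSMMUG00000019018, chromosome 7, 45247117 to 45326456), an inhibitory SMAD and a direct BMP target, was low throughout. It was at 1.42 and 0.586 FPKM in female naive 1 and 2, 1.33 and 2.36 FPKM in male naive 1 and 2, and 2.46 and 2.10 FPKM in primed 1 and 2. Only male naive 2 reached the primed range. The difference was -0.48 (95% interval -1.19 to 0.22, limma adjusted p = 0.31), on 4 and 6 effective fragments in male naive libraries. MSX2 (ENSMMUG00000004932, chromosome 6, 171144620 to 171150865), a BMP-induced homeobox factor, was at 1.30 and 0.245 FPKM in female naive 1 and 2, 0.865 and 0.205 FPKM in male naive 1 and 2, and 0.306 and 0.665 FPKM in primed 1 and 2. It passed 1 FPKM only in female naive 1 and rested on 1 to 35 effective fragments. Without the filter on low rows its naive minus primed difference was 0.11 (SE 0.32, limma adjusted p = 0.863).

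**Figure D3:**
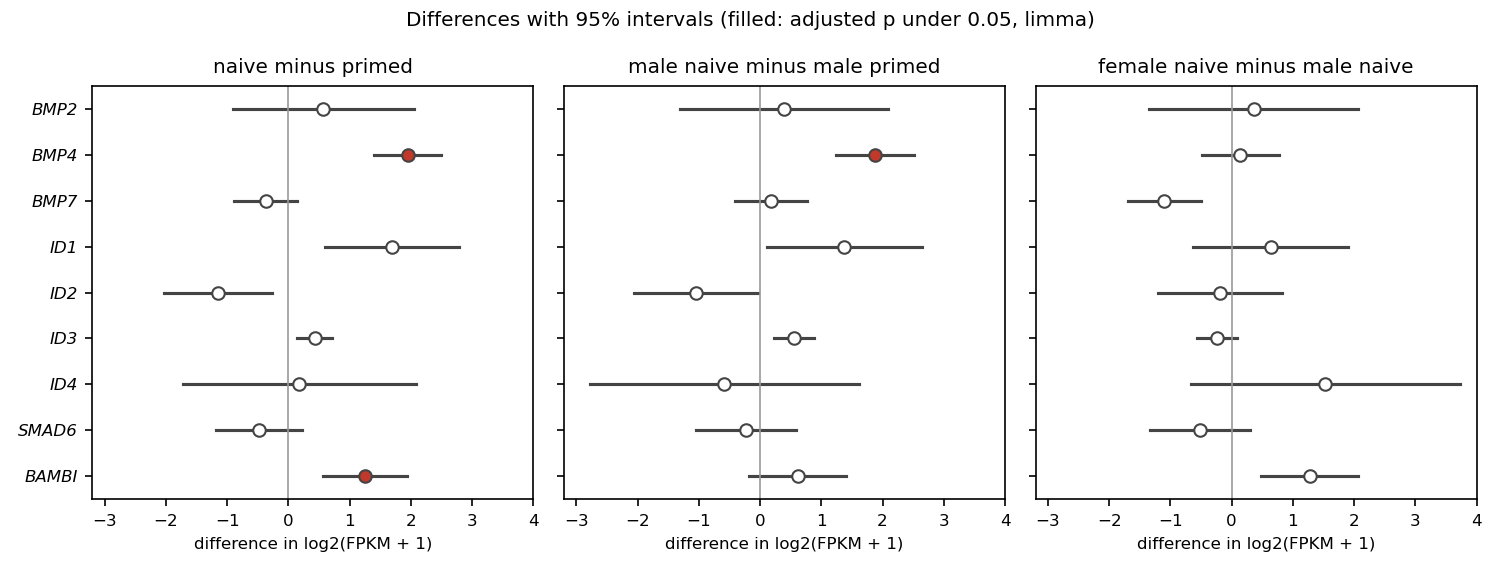
Differences in log2(FPKM + 1) with 95% intervals from limma for the 9 tested genes, in naive minus primed, male naive minus male primed and female naive minus male naive; filled points have an adjusted p under 0.05. BMP4 (1.95 and 1.88) is called in the first and second comparison and BAMBI (1.25) in the first, and the ID4 interval is the widest in each.

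Within males, 1 of the 9 tested members, BMP4, was called higher and 0 lower in naive lines, against 3.97% and 1.42% of all tested rows (5.39% in either direction). The members' median log2 difference was 0.39, beside 0.090 over all rows, and the unadjusted p was under 0.05 for 4 members (BMP4, ID1, ID2 and ID3), beside 25.7% of all rows. ID3 was nearest to the threshold of the uncalled ones, at 142 ± 3.49 FPKM in male naive and 96.6 ± 3.95 FPKM in primed lines (SD, n = 2 each), with a difference of 0.55 (SE 0.14, limma adjusted p = 0.071). Between the naive groups limma called 0 of 9 members, against 3.31% of all rows (0.76% higher and 2.55% lower), and the unadjusted p was under 0.05 for 2, BMP7 and BAMBI, beside 21.7% of all rows. These leaned in opposite directions, BMP7 lower and BAMBI higher in female naive lines. The members' median was 0.14, beside -0.10 over all rows.

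**Figure D4:**
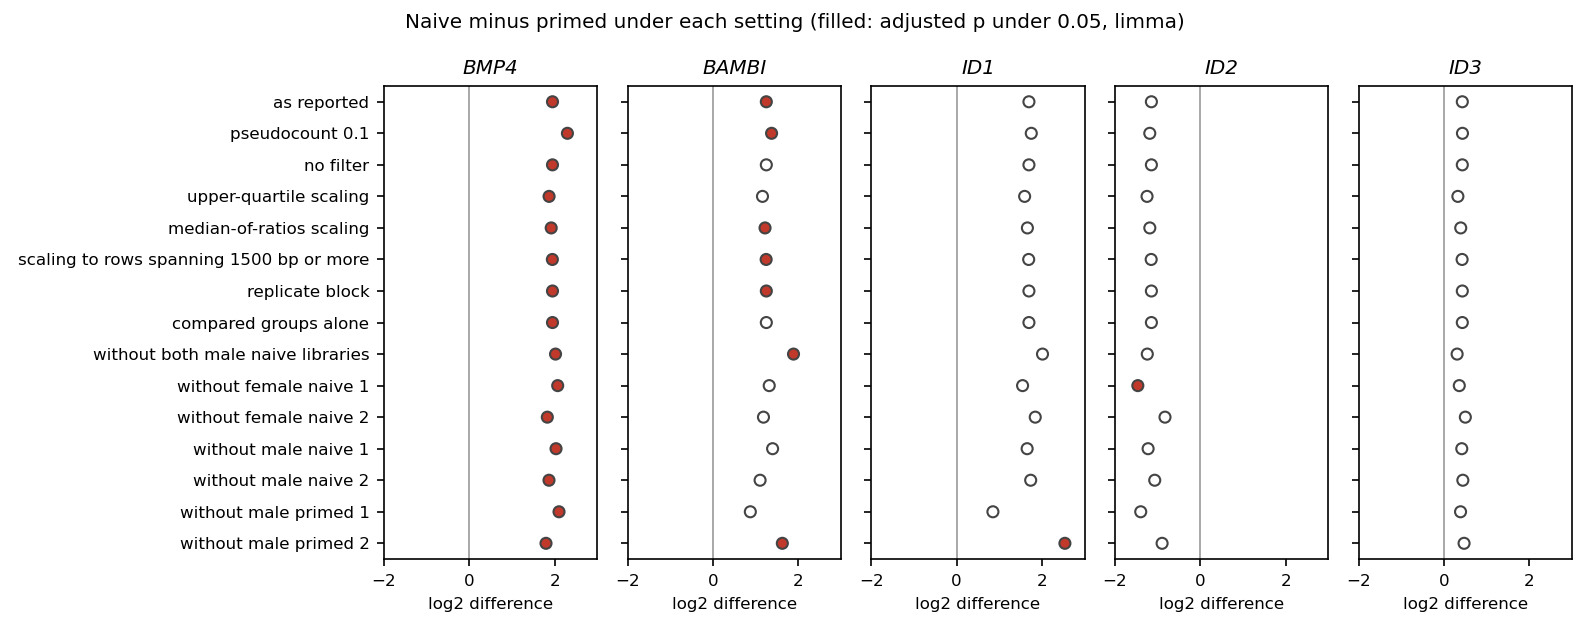
Naive minus primed difference in log2(FPKM + 1) of BMP4, BAMBI, ID1, ID2 and ID3 as reported and under 14 alternative settings, 1 row per setting; filled points have a limma adjusted p under 0.05. BMP4 is filled in every row, BAMBI in the reported one and 6 alternatives, ID1 and ID2 in 1 each and ID3 in none.

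The rest of the pathway was read from 6 lists of 57 genes, of which 55 had a row and 33 were tested. In naive against primed lines 1 was called higher and 4 lower, 15.2% against 11.3% of all rows, with a median difference of -0.076. The gene called higher was SMAD7, the second inhibitory SMAD, which is induced by BMP, Nodal and TGF-beta alike. It was at 9.24 and 14.1 FPKM in female naive, 4.40 and 3.13 FPKM in male naive, and 1.35 and 1.59 FPKM in primed libraries, and it rose by 1.64 (SE 0.25, limma adjusted p = 0.0168). Within males the SMAD7 difference was 0.94 (SE 0.28, limma adjusted p = 0.108), which was not called. Female minus male naive was 1.40 (SE 0.28, limma adjusted p = 0.0596), not called either. All naive libraries were above both primed libraries, whereas SMAD6, the other inhibitory SMAD, was not called and overlapped between the states. SMAD7 rested on 15 and 9 effective fragments in male naive libraries, and its call was lost without female naive 2, male naive 1 or primed 1 and with sex ignored (limma adjusted p 0.0512, 0.0534, 0.0716 and 0.134, range 0.0174 to 0.134 over 14 alternatives).

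Receptors and signal transducers mostly stayed under the threshold, as did most rows, of which 11.3% were called. Of 9 tested receptors and co-receptors, 0 were higher and 2 lower, against 6.72% and 4.59% of all rows, with a median of -0.076. The 2 lower ones were RGMA and RGMB, glycosylphosphatidylinositol-anchored BMP co-receptors. RGMB was at 6.51 and 5.18 FPKM in female naive, 15.5 and 16.1 FPKM in male naive, and 73.4 and 49.3 FPKM in primed libraries. No groups overlapped, and it fell by 2.52 (SE 0.20, limma adjusted p = 0.00507), within males by 1.86 (SE 0.23, limma adjusted p = 0.0125) and in female against male naive lines by 1.30 (SE 0.23, limma adjusted p = 0.0403). RGMA was at 21.5 and 17.6 FPKM in female naive, 57.6 and 55.4 FPKM in male naive, and 112 and 67.8 FPKM in primed libraries. It fell by 1.36 (SE 0.21, limma adjusted p = 0.0181), and by 1.49 in female against male naive lines (SE 0.25, limma adjusted p = 0.0365). Within males its difference was -0.615 (SE 0.25, limma adjusted p = 0.184), which was not called. Upper-quartile or median-of-ratios scaling ended the call of both genes between the naive groups (limma adjusted p 0.0501 to 0.0594, range 0.0131 to 0.216 over 13 alternatives each), as did leaving out any 1 naive library or the filter on low rows. Within males the RGMB call was lost without male naive 1 (0.0852) or 2 (0.0866), and the RGMA call in naive against primed lines without female naive 2, male naive 1 or male naive 2 (0.0571 to 0.0608). With sex ignored, neither was called in naive against primed lines (RGMA 0.194, RGMB 0.053).

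BMPR1A, a type I receptor, was at 25.5 ± 1.58 FPKM in female naive, 31.5 ± 1.08 FPKM in male naive and 28.6 ± 9.66 FPKM in primed lines (SD, n = 2 each), with a difference of 0.025 that turned negative under 2 scalings. BMPR2, the BMP type II receptor, was at 6.06 ± 0.865 FPKM in female naive, 4.11 ± 0.403 FPKM in male naive and 3.10 ± 0.902 FPKM in primed lines (SD, n = 2 each; difference 0.56, limma adjusted p = 0.146). Of 6 tested SMADs and SMAD ubiquitin ligases, SMAD7 alone was called higher, against 6.72% of all rows. None was called lower, against 4.59% of all rows, and the list median was 0.29. SMAD1, a BMP-activated SMAD, was at 13.3 ± 0.226 FPKM in female naive, 13.4 ± 1.32 FPKM in male naive and 11.0 ± 1.39 FPKM in primed lines (SD, n = 2 each). SMAD5, its close relative, was at 11.5 ± 1.64 FPKM in female naive, 12.5 ± 1.60 FPKM in male naive and 12.7 ± 0.446 FPKM in primed lines. SMAD4, the partner of both, was at 21.4 ± 0.0863 FPKM in female naive, 25.6 ± 1.59 FPKM in male naive and 24.2 ± 6.71 FPKM in primed lines. The naive minus primed differences were 0.26 for SMAD1, -0.078 for SMAD5 and -0.018 for SMAD4, none called.

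**Figure D5:**
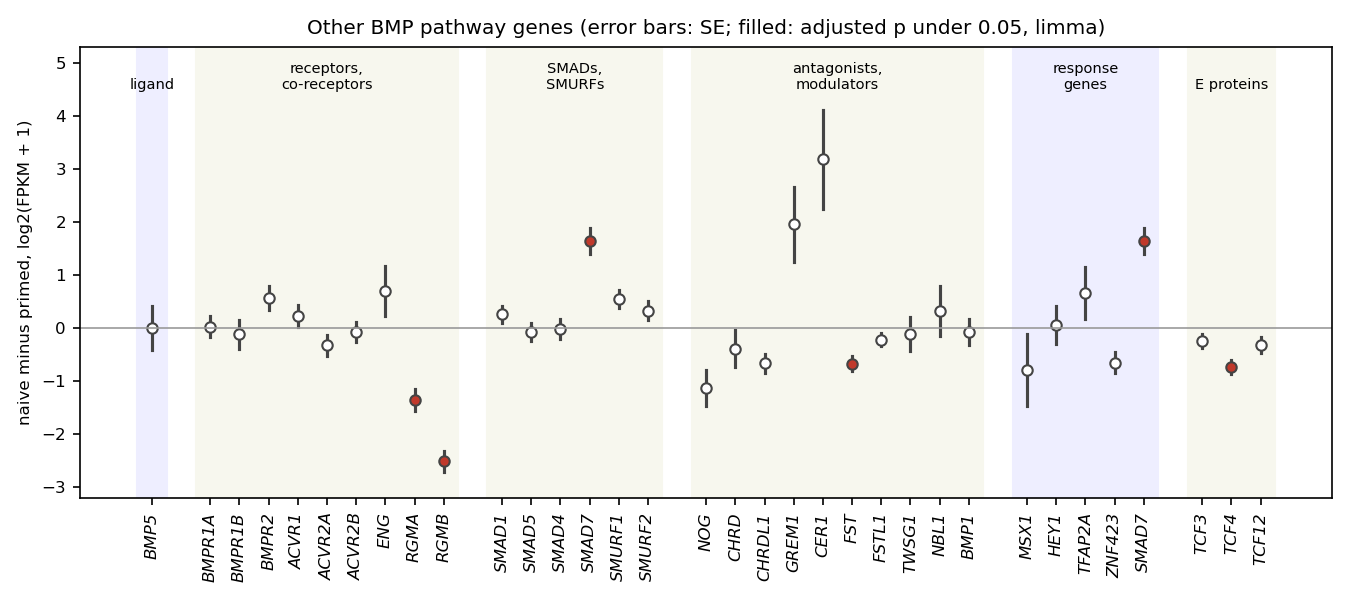
Naive minus primed difference in log2(FPKM + 1) with SE for the tested genes of 6 BMP pathway lists, in list order from ligands to E proteins; SMAD7 stands in 2 lists and filled points have a limma adjusted p under 0.05. SMAD7 (1.64) is called above 0, and RGMB (-2.52), RGMA (-1.36), TCF4 (-0.74) and FST (-0.67) below.

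Among extracellular antagonists and modulators, 0 of 10 tested genes were called higher and 1 lower, against 6.72% and 4.59% of all rows. The list median was -0.17. Noggin (NOG), which binds BMPs and keeps them from their receptors, was at 0.616 and 0.226 FPKM in female naive, 0.638 and 0.379 FPKM in male naive, and 3.39 and 1.30 FPKM in primed libraries. All naive libraries were below both primed libraries, on 1 and 2 effective fragments in male naive lines, and the difference of -1.13 (SE 0.34) had a limma adjusted p of 0.084. The largest differences of the list ran the other way but were not called, named here after their values were seen. CER1 was at 133 and 17.1 FPKM in female naive, 20.6 and 17.2 FPKM in male naive, and 0.491 and 6.89 FPKM in primed libraries (difference 3.19, SE 0.93, limma adjusted p = 0.0787). GREM1, a secreted BMP antagonist, was at 32.3 and 5.37 FPKM in female naive, 4.83 and 4.84 FPKM in male naive, and 0.429 and 2.93 FPKM in primed libraries (difference 1.96, SE 0.71, limma adjusted p = 0.123). For both, all naive libraries were above both primed libraries. Chordin (CHRD), another BMP-binding antagonist, was at 2.47 and 1.75 FPKM in female naive, 0.815 and 2.04 FPKM in male naive, and 1.63 and 3.71 FPKM in primed libraries and overlapped (-0.39, limma adjusted p = 0.501). Follistatin (FST), which binds activins and some BMPs, was called lower but only its female naive libraries stood apart, at 75.4 and 69.7 FPKM in female naive, 253 and 256 FPKM in male naive, and 253 and 188 FPKM in primed libraries. It fell by 0.67 in naive against primed lines (SE 0.14, limma adjusted p = 0.0354, lost in 8 of 14 alternatives, up to 0.552 with sex ignored) and by 1.80 in female against male naive lines (SE 0.16, limma adjusted p = 0.00584, lost without female naive 2, male naive 1 or male naive 2 at 0.0606 to 0.068). Within males its difference was 0.23 (limma adjusted p = 0.433).

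Of 11 other BMP-type ligands, 9 had a row and 1, BMP5, reached the testing limit, and BMP10, BMP15 and GDF2 were listed at 0 in every library. Of 12 other response genes 5 were tested, with a median of 0.061. SMAD7, already described, was the only one called, against 11.3% of all rows called in either direction. E proteins, the dimer partners that ID proteins hold, were expressed in all groups. TCF4 fell by 0.74 in naive against primed lines (SE 0.14, limma adjusted p = 0.0276), at 19.2 ± 0.309 FPKM in female naive, 25.1 ± 1.76 FPKM in male naive and 37.5 ± 5.42 FPKM in primed lines (SD, n = 2 each). It was lost in 8 of 14 alternatives (0.0205 to 0.094). Within males the TCF4 difference was -0.55 (SE 0.16, limma adjusted p = 0.0989), which was not called. TCF3 was at 26.7 ± 1.72 FPKM in female naive, 35.5 ± 2.79 FPKM in male naive and 37.0 ± 4.07 FPKM in primed lines (difference -0.25, limma adjusted p = 0.246).

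Of the 3 ligands, BMP7 had the highest mean over the 6 libraries, although BMP4 exceeded it in both female naive libraries and in the naive mean. By the same likeness measure, the genes nearest to BMP7 were SRGAP2, a GTPase-activating protein (0.0999), MAGEF1, of the MAGE family (0.101), and RAD50, of the DNA break repair complex (0.105), beside a range of 1.46 for BMP7. SRGAP2 was at 7.05 and 5.04 FPKM in female naive, 14.7 and 15.8 FPKM in male naive, and 13.8 and 13.4 FPKM in primed libraries.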

How the data were processed

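Total RNA of 6 iPSC lines was sequenced following Illumina's protocol, per the labels. Per the submitters' processing notes, TopHat 1.3.0 was used. Each deposited table gives FPKM with a lower and an upper bound for Ensembl rhesus genes, and its columns, per the file headers, are those of Cufflinks tracking output. Quantifier version, genome build and annotation are not stated in the sources used here, nor is any scaling between libraries. Titles and the sex label gave the groups.

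Effective fragments were computed as (2 × FPKM / (upper bound − FPKM)) squared, since the bound lies 2 SD above FPKM. Below 50 they came out whole, to within 0.05, for 56.5% to 62.6% of values per library. They cover counting error only. An exact zero is given only as listed at 0.

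A row was tested if it reached 1 FPKM in 2 or more libraries, and 40 rows with a failed or low-data status were left out. The model was limma 3.58.1 (R 4.3.3) on log2(FPKM + 1) with 1 mean per group, a trended prior and 3 residual degrees of freedom; p-values are two-sided and Benjamini-Hochberg adjusted over all 13685 rows. Because lines are not tied to donors, p-values reflect only how much these lines vary. Alternatives changed the pseudocount, the filter, the scaling, the block, the groups fitted and each library.

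The members and lists were chosen with earlier results of these data known. All members were named, with the called genes of each pathway list (up to 4), a fixed set of receptors, SMADs and antagonists, and the 3 genes nearest in profile to the most abundant ID gene and ligand. CER1, GREM1, LUM, COL1A1 and other single markers were named after their values were seen.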

Additional observations from a re-analysis of the deposited data

Results flagged for a closer look

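ID4 in male naive 1 stood far from the other naive libraries. Its gap to the nearest of them took 0.938 of the range of the 4 naive libraries on the log2(FPKM + 1) scale, above the 95% critical value of Dixon's test for 4 values. The level was 1.13 FPKM on 1 effective fragment there, against 16.2 FPKM in male naive 2 and 17.7 and 15.3 FPKM in the female naive libraries. Chance flags about 1 in 20 such groups, and 10 genes were examined. The ID4 row is the shortest of the 10, spanning 856 bp.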

How the results depend on the processing

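The signs of the naive against primed differences of BMP4, BAMBI, BMP2, BMP7, ID1, ID2, ID3 and SMAD6 held under all 14 alternatives. BMP4 was called under each (limma adjusted p 0.0112 to 0.0422, difference 1.80 to 2.30). Over the members' 27 results and 360 alternative values, 339 kept sign and call, 10 lost a call, 3 gained one and 8 changed sign. Over 17 results of other pathway genes and 232 values, 179 kept both, 45 lost the call and 8 changed sign. The cause was not tested.

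Members called in naive against primed lines numbered 2, and 1 with no filter, with upper-quartile scaling or with sex ignored, and 1 to 3 when a library was left out. Within males they numbered 1, and 0 to 2 with a library left out. Of all rows, 1548, 738 and 453 were called in naive against primed, male naive against primed and female against male naive lines. In that order, no filter gave 941, 400 and 268, a replicate block 812, 373 and 207, and leaving out 1 library 332 to 1150, 56 to 711 and 49 to 600. Fitting the compared groups alone gave 250 with sex ignored and 447 within males, and leaving out both male naive libraries 776. Same-numbered libraries share only a number: their deviations correlated at -0.0605, -0.263 and -0.0495 between groups, and the replicate block left the members called at 2, 1 and 0; among pathway genes it ended the calls of FST (limma adjusted p = 0.0554) and TCF4 (0.0614) in naive against primed lines and of RGMB between naive groups (0.0699).

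Signs that changed when a library was left out belong to uncalled differences. In naive against primed lines these were ID4 (-0.58 and -0.24; range -0.58 to 0.93), CHRD (0.033; -0.81 to 0.033), SMAD4 (0.012 and 0.26; -0.29 to 0.26) and BMPR1A (-0.0059 and -0.31; -0.31 to 0.36), the last also at -0.077 with upper-quartile scaling, -0.012 with median-of-ratios scaling and -0.12 without both male naive libraries. Within males they were ID4 (0.92; -2.09 to 0.92) and SMAD6 (0.037; -0.49 to 0.037). Between naive groups they were BMP2 (-0.77; -0.77 to 1.49), BMP4 (-0.10 and -0.024; -0.10 to 0.38) and ID2 (0.44; -0.83 to 0.44). Upper-quartile and median-of-ratios scaling moved the median of all rows from 0.090 to -0.058 and -0.0091 within males and from -0.10 to 0.0093 and 0.030 between naive groups. NOG fell under the testing limit when primed 1 or primed 2 was left out.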
